A study of Homo sapiens with 6 samples.

Results

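The comparison described here set RPE1 cells depleted of NuMA and treated with hydrogen peroxide (H2O2) against wild type RPE1 cells also given H2O2, by 4sU-seq of newly made RNA. RPE1 is an immortalised human line derived from retinal pigment epithelium. The comparison used 4 of the 6 libraries: 2 of NuMA (TDIF) knockdown cells with doxycycline and H2O2, and 2 of wild type cells with H2O2 and no doxycycline. A further 2 libraries of untreated wild type cells, with neither agent, are quoted for the starting level. All groups were RPE1, and the knockdown alone had doxycycline, so the drug and the loss of NuMA cannot be told apart. The labels name neither the construct that targets NuMA, nor clones, doses, times or the labelling period. Nor do they tie the libraries to separate cultures, so the spread behind the p-values may be technical. The 6 libraries hold no untreated knockdown cells. An effect of the knockdown present without H2O2 and a changed response to H2O2 therefore cannot be told apart.

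Members were all genes of the table that compares these groups, without selection by fold change or p-value. It lists 60448 genes, of which 18266 had an adjusted p, and 8692 had values of at least 5 in both groups. These 8692 set the median gene against which changes are given, and counts of 2-fold differences and medians of gene groups use them alone. Each value is 1 number per gene and group, pooled over 2 libraries, so no library can be shown on its own.

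NuMA, the product of NUMA1, is a large nuclear protein that moves to the spindle poles in mitosis, where it bundles microtubules and links them to dynein. Outside mitosis it is a structural protein of the nucleus, and the series title places it in DNA repair. In 4sU-seq the uridine analogue 4-thiouridine is taken up into RNA while it is being made, and only RNA that carries it is pulled out for sequencing. H2O2 oxidises bases and breaks DNA strands, and it induces stress and immediate early genes.

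The mean counts recovered from the deposited values summed to 16874634 per library in the knockdown, 18399010 in H2O2-treated wild type and 14814914 in untreated wild type. Of these, 11.0% lay on the mitochondrial genome in the knockdown, 6.33% in H2O2-treated wild type and 14.2% in untreated wild type. The deposited ratios carried no scaling for depth. The median gene stood at a log2 ratio of -0.23, a factor of 1.18, while the summed counts alone gave -0.12. Every log2 difference below is given after subtracting the ratio of the median gene, which takes out more than the difference in summed counts. Each is printed with the standard error implied by the authors' deposited p-value, whose median was 0.13 over the 8692 genes. A gene is said to have risen or fallen where 2 tests gave a Benjamini-Hochberg adjusted p under 0.05 over the 18266 genes. These were the authors' deposited test and a normal test of the centred difference. The uncentred deposited test asks more of higher genes than of lower ones. Mean counts are printed per group, not scaled for depth.

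NUMA1 itself is a protein-coding gene on the minus strand at chr11:72002864-72080693 (hg38). It had a mean count of 933.5 in the knockdown, 1571 in H2O2-treated wild type and 1168 in untreated wild type. NUMA1 fell by 0.52 ± 0.12 on the log2 scale, or 1.43-fold (centred normal test, adjusted p = 0.000196), and by 0.75 in the authors' deposited table. The targeted gene was thus lower in the group labelled as knockdown. Its difference lay between percentile 10 (-0.63) and percentile 25 (-0.32) of the 8692 genes, so many genes were as low. Mature NUMA1 RNA and NuMA protein were not measured here, so 1.43-fold is not the size of the depletion.

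The profile as a whole was narrow. Of the 8692 genes, 49.9% lay within 1.25-fold of the median gene, 76.7% within 1.5-fold and 94.6% within 2-fold. By the call rule 1244 genes rose (6.81% of 18266) and 3033 fell (16.6%), so that 70.9% of the calls were lower. With the centred test alone, added after seeing the data, 2432 stood higher (13.3%) and 3033 lower (16.6%), so that 55.5% of calls were lower. The authors' deposited test alone gave 1244 higher (6.81%) and 5118 lower (28.0%), or 80.4% lower. At least 2-fold differences were held by 193 genes on the higher side (2.22% of 8692) and 279 on the lower side (3.21%). At the edges, CRYAB (1.0018) was just inside and SELM (0.9988) just outside the higher limit, and LAMA4 (-1.0017) just inside and C8orf33 (-0.9969) just outside the lower one.

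**Figure D1:**
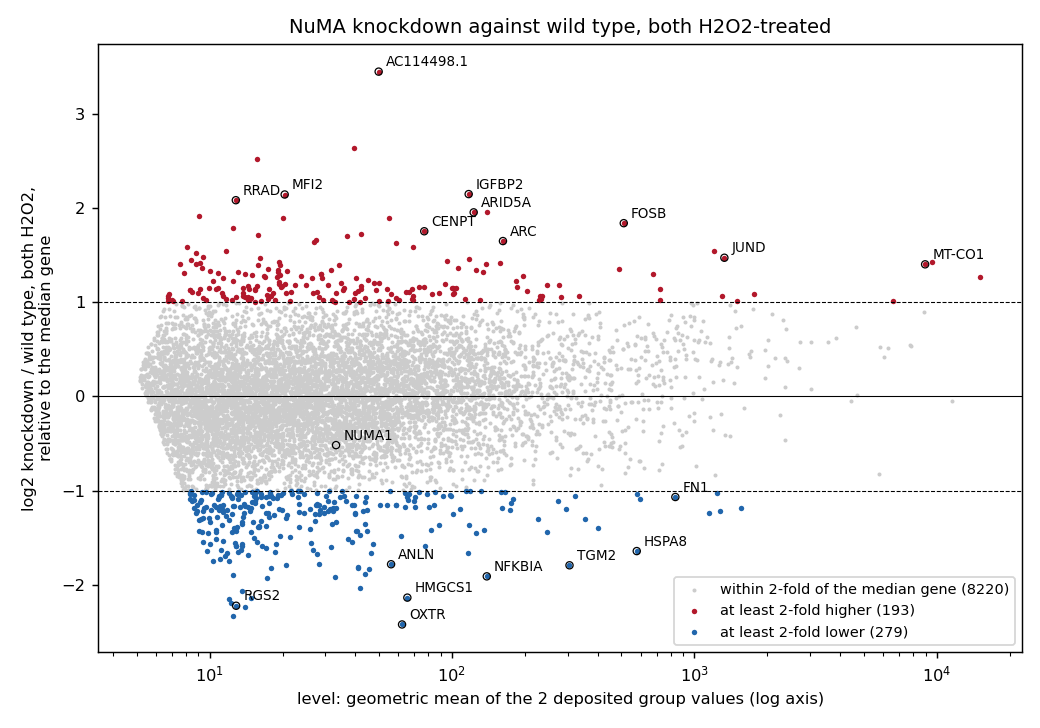
Log2 difference of knockdown from wild type, both H2O2-treated and relative to the median gene, against level (geometric mean of both group values, log axis), for the 8692 genes with both values at least 5. Red points are the 193 genes at least 2-fold higher and blue points the 279 at least 2-fold lower; differences run from -2.42 for OXTR to 3.45 for AC114498.1, and NUMA1 lies at -0.52.

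Genes of mitosis, DNA replication and cholesterol synthesis have known promoter elements, and 4 of their promoters are shown here because the genes stand among the lowest. The FOSB promoter is shown for the higher side and that of FILIP1L for actin cytoskeleton genes. Each is the 250 bases taken as promoter before the gene's RefSeq start (GRCh38.p14), 5′ to 3′ on the gene's strand. GENCODE 29 starts ANLN at 36389806 and HMGCS1 at 43313512, inside these windows, so part of each lies in the gene by that annotation. Capitals mark the cell-cycle homology region TTTGAA in ANLN, TTTGAA and CCAAT in KIF23, the E2F-type motif TTTGGCGC in MCM6, CCAAT in HMGCS1, TATAAA in FOSB and a CArG box in FILIP1L, on either strand. ANLN lies at chr7:36389612-36389861 (plus), KIF23 at chr15:69414099-69414348 (plus) and MCM6 at chr2:135876444-135876693 (minus). HMGCS1 lies at chr5:43313413-43313662 (minus), FOSB at chr19:45467746-45467995 (plus) and FILIP1L at chr3:99876174-99876423 (minus).
ANLN: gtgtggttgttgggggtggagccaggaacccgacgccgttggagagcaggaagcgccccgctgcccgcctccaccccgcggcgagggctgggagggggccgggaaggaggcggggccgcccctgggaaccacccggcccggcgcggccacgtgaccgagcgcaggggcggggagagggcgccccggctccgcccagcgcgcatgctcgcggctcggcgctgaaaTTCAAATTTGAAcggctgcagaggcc
KIF23: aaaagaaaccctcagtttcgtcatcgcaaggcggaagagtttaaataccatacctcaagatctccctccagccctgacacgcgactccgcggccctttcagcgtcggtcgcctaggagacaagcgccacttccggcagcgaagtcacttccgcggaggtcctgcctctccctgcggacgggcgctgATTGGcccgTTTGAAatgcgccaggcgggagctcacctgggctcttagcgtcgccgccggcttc
MCM6: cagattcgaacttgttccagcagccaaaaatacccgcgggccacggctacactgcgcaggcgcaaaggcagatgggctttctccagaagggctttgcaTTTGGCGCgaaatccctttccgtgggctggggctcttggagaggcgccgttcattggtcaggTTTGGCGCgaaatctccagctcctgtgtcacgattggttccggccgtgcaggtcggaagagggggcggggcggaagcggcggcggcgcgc
HMGCS1: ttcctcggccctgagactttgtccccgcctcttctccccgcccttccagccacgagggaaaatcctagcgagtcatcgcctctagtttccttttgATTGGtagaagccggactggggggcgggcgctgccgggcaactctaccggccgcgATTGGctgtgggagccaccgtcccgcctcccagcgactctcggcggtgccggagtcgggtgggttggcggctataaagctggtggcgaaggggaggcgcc
FOSB: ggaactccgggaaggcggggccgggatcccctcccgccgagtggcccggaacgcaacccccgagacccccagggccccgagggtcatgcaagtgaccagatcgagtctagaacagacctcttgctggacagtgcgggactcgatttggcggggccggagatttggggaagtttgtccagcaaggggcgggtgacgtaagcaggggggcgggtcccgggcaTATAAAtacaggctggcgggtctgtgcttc
FILIP1L: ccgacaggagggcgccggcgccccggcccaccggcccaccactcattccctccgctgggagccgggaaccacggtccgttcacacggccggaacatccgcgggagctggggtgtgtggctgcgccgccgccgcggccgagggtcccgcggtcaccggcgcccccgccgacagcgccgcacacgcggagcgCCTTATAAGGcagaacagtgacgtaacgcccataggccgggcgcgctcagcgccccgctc

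In ANLN the 2 copies of TTTGAA lie back to back on opposite strands. TTTGAA was found in 56.1% of the 41 mitotic promoters matched, against 13.6% of all 27305 promoters and 7.19% of the 6945 matched promoters of genes with both values at least 5. CCAAT was found in 75.6% of the mitotic promoters, 64.1% of 39 replication promoters and 83.3% of 18 cholesterol promoters, against 33.0% of all. TTTGGCGC was found in 7.69% and TTTCCCGC in 23.1% of the replication promoters, against 0.553% and 1.42% of all. The CArG box, the element bound by SRF, was found in 34.6% of 26 promoters of SRF and YAP targets, against 1.14% of all, and TATAAA in 22.2% of 27 immediate early promoters, against 11.1% of all. All list members were counted, changed or not, and such elements are known for these genes. The list shares therefore describe the lists and not the knockdown. Among all genes at least 2-fold lower, TTTGAA stood in 12.9% of 217 promoters, and among those at least 2-fold higher in 3.05% of 131. These stand beside 7.19% of genes with both values at least 5 and 13.6% of all promoters. CCAAT stood in 39.6% of the lower and 42.7% of the higher promoters, against 35.4% of genes with both values at least 5. Both strands were searched, motifs may overlap, and a match is a description of the letters in this window.

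Of the 25 genes for NuMA and its partners in spindle orientation, 14 fell, 2 rose and 9 were not called, against 16.6% and 6.81% of all tested genes, and the median difference was -0.33. The centred test alone gave 6 higher, which adds GPSM1, ACTR1A, GNAI2 and DYNC1LI1, against 13.3% of all. Dynein and dynactin genes did not move as 1 block. DYNC1LI2, a dynein light intermediate chain, had mean counts of 282 in the knockdown and 778 in H2O2-treated wild type and fell by 1.23 ± 0.15. DCTN1, the large dynactin subunit, fell by 0.74 ± 0.10, and DYNC1I2, NDEL1 and PAFAH1B1 fell (-0.44, -0.45 and -0.39). In the other direction DCTN3 rose by 0.73 ± 0.12, and DYNC1H1, the dynein heavy chain, rose by 0.47 ± 0.10. KPNB1, the importin that holds NuMA until Ran-GTP releases it, fell by 0.93 ± 0.09. The spindle factors TPX2, PLK1 and AURKA fell (-0.89, -0.84 and -0.69). GPSM2, known as LGN, which tethers NuMA to the cortex, had a value under 5 and fell by 1.52 ± 0.34. GNAI3 and EPB41, also with values under 5, and EPB41L2 fell (-0.30, -0.74 and -0.26). Not called were GPSM1 (0.45), ACTR1A (0.38), RAE1 (0.30), GNAI2 (0.29), DYNC1LI1 (0.28), DCTN2 (0.18), DLG1 (0.11), GNAI1 (-0.27) and NDE1 (-0.55).

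Among the 15 protein-coding genes that stood highest were FOSB, ARC, CSRNP1 and ARID5A, whose mean counts in wild type were also higher with H2O2 than without. FOSB, a subunit of the AP-1 transcription factor, had mean counts of 39704.5 in the knockdown, 13025 in H2O2-treated wild type and 156.5 in untreated wild type. That is a difference of 1.84 ± 0.07 (adjusted p = 6.78e-137). ARC, an immediate early gene best known at synapses, had 7780.5, 2911.5 and 22.5 (1.65 ± 0.08), and CSRNP1, a nuclear DNA-binding protein, had 4935, 1553 and 1080 (1.90 ± 0.09). ARID5A, an RNA-binding protein that stabilises cytokine transcripts, had 7470.5, 2262.5 and 888.5 (1.96 ± 0.09). In each of these 4 genes the knockdown stood above both wild type groups. The FOSB gene overlaps ERCC1 on the opposite strand, which differed by 0.43.

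Among protein-coding genes with both values at least 5, the highest differences belonged to IGFBP2 and MFI2. IGFBP2, which binds insulin-like growth factors, had mean counts of 6312.5 in the knockdown, 1671 in H2O2-treated wild type and 658.5 in untreated wild type (2.15 ± 0.10, adjusted p = 1.58e-97). MFI2, or melanotransferrin, an iron-binding surface protein, had 1055, 279.5 and 169.5 (2.15 ± 0.14). RRAD, a Ras-related GTPase, had 392.5, 108 and 20.5 (2.09 ± 0.20). BMF, a BH3-only protein that promotes apoptosis, had 1728.5, 613.5 and 689.5 (1.73 ± 0.12), and CENPT, a kinetochore protein, 2443, 850 and 1404 (1.76 ± 0.10). CENPT overlaps NUTF2 (0.76) and THAP11 (-0.81) on the other strand, and no strand setting is given in the sources used here. The other genes of the 15 were CCER2 (1.91), the lipase LIPH (1.79), the gastrin gene GAST (1.71), GCAT (1.66), ANGPTL4, an inhibitor of lipoprotein lipase (1.63), and VAMP8, a vesicle fusion protein (1.48).

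On the lower side OXTR, the oxytocin receptor gene, had mean counts of 675 in the knockdown, 4259 in H2O2-treated wild type and 1751 in untreated wild type, and fell by 2.42 ± 0.10 (adjusted p = 4.09e-138). RGS2, a regulator of G protein signalling, had 76.5, 424.5 and 127.5 and fell by 2.22 ± 0.21. DDIT4, an inhibitor of mTORC1, had 91.5, 481.5 and 94 and fell by 2.15 ± 0.20. For OXTR and RGS2 the knockdown stood below untreated wild type, and for DDIT4 next to it. HMGCS1, which makes HMG-CoA for cholesterol synthesis, had 738, 3820.5 and 122.5 and fell by 2.14 ± 0.10, still above the untreated group. NFKBIA, the inhibitor that NF-kB induces against itself, had 1084, 4796.5 and 2500 (fell by 1.91 ± 0.09), and TGM2, a transglutaminase of the matrix, 6347, 25872.5 and 12987.5 (fell by 1.79 ± 0.08).

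The other lowest genes were VGLL4, a cofactor of TEAD factors (-2.03), NOP58, a core protein of box C/D small nucleolar RNA particles (-1.92), PNN, or pinin (-1.88), and SSB, the La protein that binds new RNA polymerase III transcripts (-1.82). LMNB1, which encodes lamin B1, stood at -1.82, ID2 at -1.81, MCM6 at -1.79, ANLN at -1.78 and TMEM97 at -1.78. All 30 genes named passed the call rule. CD226, an immune receptor, lay just under the limit on values, at 4.89 in the knockdown and 82.5 in H2O2-treated wild type. Its mean counts were 213.5, 3622 and 1370 in knockdown, H2O2-treated and untreated wild type, and it fell by 3.84 ± 0.12 (adjusted p = 3.60e-238). Its neighbours TMX3 (-0.19), RTTN (-0.45) and SOCS6 (-0.32) were not called. CD226 was picked after its values were seen.

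**Figure D2:**
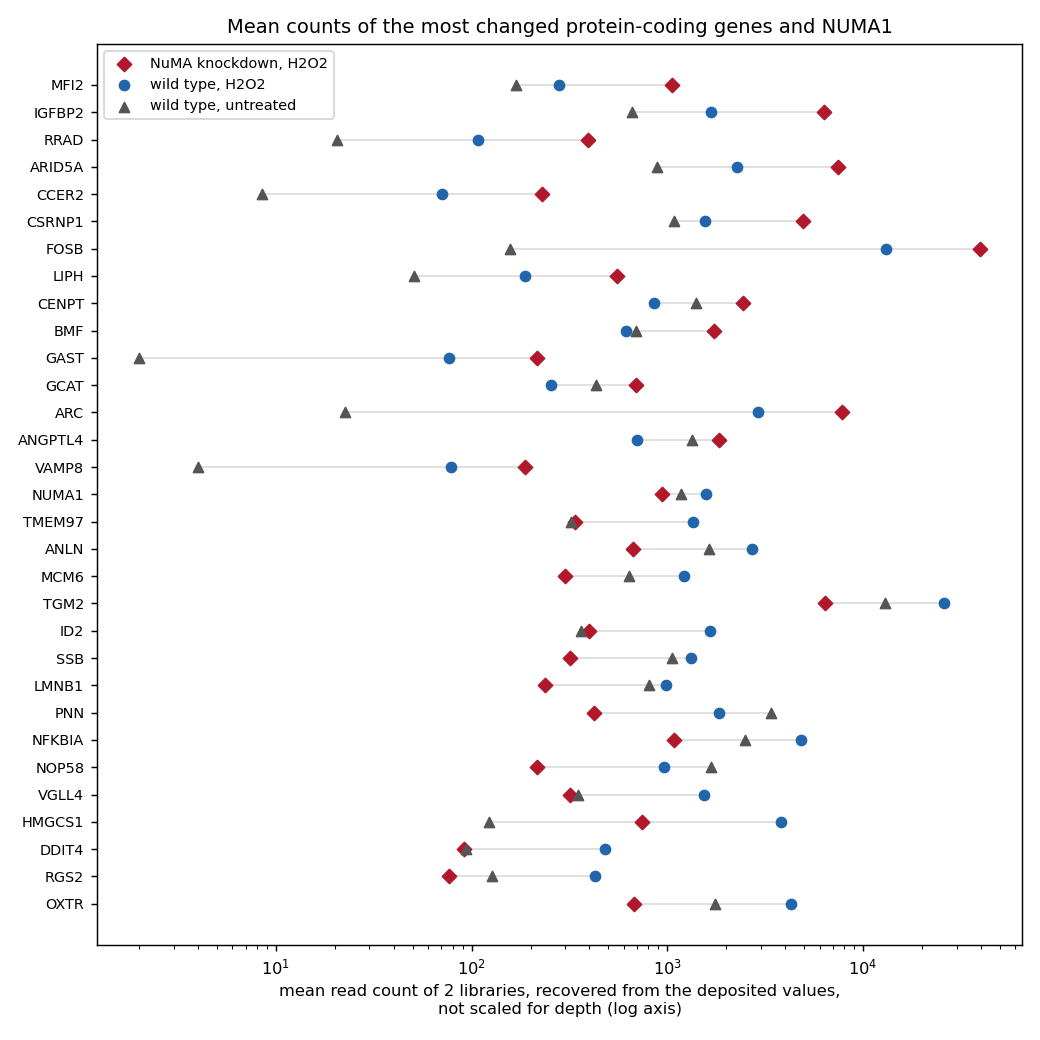
Mean read count of 2 libraries (log axis, not scaled for depth) in the knockdown, H2O2-treated wild type and untreated wild type, for the 15 highest and 15 lowest protein-coding genes and NUMA1. FOSB reaches 39704.5 in the knockdown against 13025 in H2O2-treated wild type, and OXTR 675 against 4259; the counts of VGLL4, whose gene length is not settled, may be off by a common multiple.

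Beyond protein-coding genes, AC016999.2, an antisense RNA inside ASB1, had mean counts of 716.5 in the knockdown and 134.5 in H2O2-treated wild type (2.64 ± 0.17), and ASB1 stood at 0.79. The lincRNA CTD-2105E13.16 had 205 and 41 (2.53 ± 0.28). AC114498.1 (3.45) and FP236383.9 (1.96) have no entry in GENCODE 29, and their gene lengths are not settled. TGFB2-AS1, annotated as antisense, had 49 and 295.5 and fell by 2.33 ± 0.50, and a lincRNA at chr17:19112000-19112636 had 71.5 and 374 and fell by 2.14 ± 0.22. RNVU1-6 (-2.23) and U1 (-2.19) are copies of the U1 spliceosomal RNA, whose reads cannot be assigned to 1 copy with certainty. Of 25 small nuclear RNAs with both values at least 5, 10 were at least 2-fold lower and none 2-fold higher, against 3.21% and 2.22% of all. Their median was -0.77.

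Genes of cell division fell together. Of 47 genes for mitotic entry, the spindle and cytokinesis, 40 fell and none rose, against 16.6% of all tested genes that fell. None rose by the centred test alone either, and 0 stood higher at an unadjusted p under 0.05. The median was -0.78 over the 29 with both values at least 5. ANLN, or anillin, which scaffolds the cytokinetic ring, had mean counts of 670.5 in the knockdown, 2715 in H2O2-treated wild type and 1627 in untreated wild type. KIF23, a motor of the central spindle, fell by 1.59 ± 0.14. FOXM1, the transcription factor of G2 genes, fell by 1.37 ± 0.14, NDC80, of the kinetochore, fell by 1.33 ± 0.20, and ECT2, which activates RhoA for cytokinesis, fell by 1.28 ± 0.17. PTTG1 (0.14), KIF20A (-0.06), KIF2C (-0.26) and CCNB1 (-0.27) were not called, nor were CDC25C (-0.40), ESPL1 (-0.44) and SGOL1 (-0.74). CDC20, which switches on the anaphase-promoting complex and was picked after its values were seen, had mean counts of 571.5 in the knockdown, 1155 in H2O2-treated wild type and 4074 in untreated wild type. In bulk libraries fewer cells in mitosis and less RNA per cell cannot be told apart.

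Of 46 DNA replication genes 38 fell, against 16.6% of all tested genes, and none rose by either test. At an unadjusted p under 0.05, 0 stood higher. The median was -0.85, and 15 of 37 were at least 2-fold lower, against 3.21% of all. MCM6, of the replicative helicase, had mean counts of 299.5, 1222 and 636.5 in knockdown, H2O2-treated and untreated wild type. RFC4, of the clamp loader, fell by 1.61 ± 0.22. GINS1, of the helicase complex, fell by 1.43 ± 0.18 and CDC6, which loads the helicase, fell by 1.32 ± 0.13. Of 21 condensin and cohesin subunits 15 fell and none rose by either test, with 1 higher at an unadjusted p under 0.05. The median was -0.54 over the 11 with both values at least 5. The other 10 had a value under 5 in at least 1 group. Among these 10, SMC4 (-3.23 ± 0.26), ESCO2 (-2.42 ± 0.28) and NCAPG (-1.93 ± 0.23) fell, and PDS5B (-0.45) and NIPBL (-0.39) were not called. These members under 5 were picked after their values were seen. SMC3, of the cohesin ring, had 355.5 in the knockdown against 1132.5 in H2O2-treated wild type and fell by 1.44 ± 0.13, and SMC1A fell by 0.83 ± 0.13. NCAPD3 and NCAPD2, of condensin, and PDS5A fell (-0.79, -0.75 and -0.70). Of 23 replication-dependent histones tested, HIST1H1C rose (1.42 ± 0.10), HIST1H4H, at a value of 4.61 in the knockdown, fell (-1.12 ± 0.38) and 21 were not called. Of the 25 listed, 17 lay under the limit of 5, where low counts leave wide errors, as for HIST1H3B (-1.15 ± 0.66). Replication-dependent histone mRNAs typically lack poly(A) tails, which was not checked for the members listed here, and near-identical copies can share reads.

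Since the series concerns oxidative damage, repair genes were taken separately. Of 28 genes for single-strand break and base excision repair 11 fell, against 16.6% of all tested genes, and 2 rose, a share near the 6.81% of all (median -0.23). The centred test alone gave 4 higher, against 13.3% of all. OGG1, the glycosylase that removes 8-oxoguanine, had mean counts of 149.5 in the knockdown, 302 in H2O2-treated wild type and 226 in untreated wild type and fell by 0.78 ± 0.21. FEN1, the flap endonuclease, fell by 1.25 ± 0.12, UNG, which removes uracil, fell by 0.88 ± 0.14, LIG1 fell by 0.82 ± 0.18 and PARP1, which senses breaks, fell by 0.69 ± 0.12. POLB, the gap-filling polymerase, was among the 2 that rose (0.65 ± 0.16). FEN1 and LIG1 also serve replication. Of 46 genes for double-strand break and Fanconi repair 29 fell and none rose by either test, with 0 higher at an unadjusted p under 0.05. The median was -0.36 over the 18 with both values at least 5, and the other 28 had a value under 5 in at least 1 group. CHEK1, the checkpoint kinase, fell by 1.66 ± 0.17, RBBP8, or CtIP, fell by 1.39 ± 0.15 and FANCA fell by 1.30 ± 0.22. RAD50 stood at -0.92 ± 0.18 and PRKDC, or DNA-PKcs, at -0.86 ± 0.10.

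The p53 targets went the other way. Of 32 genes 14 rose and 4 fell, against 6.81% of all tested genes that rose and 16.6% that fell. At least 2-fold higher were 8 of 29, against 2.22% of all (median 0.48). CDKN1A, the inhibitor of cyclin-dependent kinases that p53 induces, had mean counts of 58083.5 in the knockdown, 32107 in H2O2-treated wild type and 15118.5 in untreated wild type (1.09 ± 0.07). DDB2, of nucleotide excision repair, rose by 1.33 ± 0.15, AEN, a nuclease, by 1.21 ± 0.10, SESN2, a sestrin, by 1.18 ± 0.09, PLK3 by 1.15 ± 0.09 and SESN1 by 1.10 ± 0.20. MDM2, which degrades p53, rose by 0.78 ± 0.09. XPC (-1.48), with a value of only 2.43 in the knockdown, PMAIP1 (-0.74), FAS (-0.65) and PLK2 (-0.60) fell. CDKN1A and MDM2 were named after their values were seen.

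Immediate early genes went both ways. Of 39 tested 16 rose, against 6.81% of all tested genes, and 12 fell, against 16.6% of all. At least 2-fold differences were held by 9 on the higher side and 4 on the lower side of 38, against 2.22% and 3.21% of all. JUND, a partner of FOSB in AP-1, had mean counts of 42240 in the knockdown, 17874.5 in H2O2-treated wild type and 3902.5 in untreated wild type (1.47 ± 0.09). EGR4, a zinc finger factor, had 1211, 527.5 and 1 (1.43 ± 0.13). FOS, the best known AP-1 subunit, had 3844, 7668.5 and 80.5 and fell by 0.76 ± 0.08, opposite to FOSB. MYC fell by 1.41 ± 0.12 and KLF4 fell by 1.13 ± 0.14. DUSP6, a phosphatase of ERK, stood at -1.12 ± 0.15 and CTGF, a YAP target, at -1.09 ± 0.07, and both fell. JUN (-0.02 ± 0.08) lay at the median gene. ATF3, with 15567, 7141 and 288, rose by 1.36 ± 0.07. FOS, JUN, ATF3 and the 4 lowest members were named after their values were seen.

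Genes of the actin cytoskeleton and matrix were lower. Their counts are to be read against 16.6% of all tested genes that fell and 6.81% that rose. At least 2-fold lower were 3.21% of all genes with both values at least 5. Of 30 targets of SRF and YAP 19 fell and 1, CNN1, rose (0.98 ± 0.14), and 9 of 28 were at least 2-fold lower (median -0.46). FILIP1L had mean counts of 241.5 in the knockdown and 903.5 in H2O2-treated wild type and fell by 1.67 ± 0.14, and TGFB2 had 1253.5 and 4675 and fell by 1.66 ± 0.09. The actin-binding genes CALD1, TPM4 and VCL fell (-1.40, -1.21 and -1.20). Of 37 genes for collagens, laminins, fibronectin and integrins 21 fell and 1, LAMB2, rose (0.47 ± 0.09). FN1, fibronectin, had 37225.5 in the knockdown, 91757.5 in H2O2-treated wild type and 31450.5 in untreated wild type and fell by 1.07 ± 0.08. ITGB1, the shared beta subunit of many fibronectin receptors, had 12836.5, 35539 and 12480 and fell by 1.24 ± 0.08. In FN1 and ITGB1 the knockdown lay close to the untreated mean count. ITGAV, LAMA4 and COL12A1 fell (-1.06, -1.0 and -0.88).

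Lipid genes followed. Of 24 genes for cholesterol synthesis and uptake 17 fell and 1, TM7SF2, rose (1.10 ± 0.11), with a median of -0.47. These counts, and those for fatty acid genes below, stand beside 16.6% of all tested genes that fell and 6.81% that rose. SQLE, squalene epoxidase, had mean counts of 800 in the knockdown, 2086 in H2O2-treated wild type and 197.5 in untreated wild type and fell by 1.15 ± 0.11. HSD17B7 and SC5D, later enzymes of the pathway, fell (-1.06 and -1.02). Of 18 genes for fatty acid synthesis and desaturation 12 fell and 1, FADS3, rose (0.93 ± 0.10), with a median of -0.55. ELOVL5, an elongase, fell by 0.86 ± 0.10, and so did ACSL3 (-0.81), FADS1, a desaturase (-0.78), and ACACA, acetyl-CoA carboxylase (-0.77). SREBF2 (-0.11) and SREBF1 (0.47), the factors that drive both pathways, were not called.

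RNA processing and signalling genes were partly lower. Of all tested genes 16.6% fell, 6.81% rose and 13.3% stood higher by the centred test alone. Of 34 splicing regulators 24 fell and 2 rose (median -0.40). HNRNPA3, HNRNPH1, RBM25, SRSF7 and CLK1 fell (-1.16, -1.0, -0.95, -0.89 and -0.73), while HNRNPC rose by 0.65 ± 0.08 and CLK3 by 0.59 ± 0.11. Of 23 inflammatory NF-kB targets 9 fell and none rose, though the centred test alone called 3 higher and 5 stood higher at an unadjusted p under 0.05. Besides NFKBIA, NFKB1 fell by 1.02 ± 0.15, CXCL8, the chemokine interleukin-8, fell by 0.82 ± 0.14 and BIRC2 fell by 0.71 ± 0.11, and IL1B (0.58 ± 0.21) was not called. Of 27 TGF-beta and BMP response genes 10 fell and none rose, though the centred test alone called 3 higher and 4 stood higher at an unadjusted p under 0.05; the median was -0.06. ID2, INHBA, BMP4 and LTBP2 fell (-1.81, -0.81, -0.68 and -0.55).

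Ribosomal and respiratory genes stood higher, beside 6.81% of all tested genes that rose and 16.6% that fell. Of 78 cytosolic ribosomal protein genes 53 rose and 2 fell, RPL26 (-0.83) and RPL36A (-1.68, with a value under 5). Of 75 with both values at least 5, 74 lay above the median gene (median 0.57). RPL18 had mean counts of 17831.5 in the knockdown, 10278.5 in H2O2-treated wild type and 14691.5 in untreated wild type (1.03 ± 0.08), and RPL9 rose by 1.30, RPL13 by 1.0, RPS18 by 0.97 and RPS19 by 0.93. These genes have many processed pseudogenes, which can share their reads. Of 13 mRNAs of the mitochondrial genome 11 rose and none fell (median 0.90). MT-CO1, of cytochrome c oxidase, had 362555, 161060 and 338898 in knockdown, H2O2-treated and untreated wild type (1.40 ± 0.08), MT-CO3 stood at 1.43, MT-CO2 at 1.26 and MT-ND3 at 1.01. MT-ATP8 (1.31 ± 0.51) and MT-ND4L (0.04 ± 0.21) were not called. The summed values of all 13 were 98700 in the knockdown, 58800 in H2O2-treated wild type and 137000 in untreated wild type, so the knockdown lay between the wild type groups.

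Of 75 nuclear genes of oxidative phosphorylation 38 rose, against 6.81% of all tested genes, and 2 fell, against 16.6%. Among those that fell was SDHC (-0.42), and the median was 0.57. COX6A1 and COX7B, of complex IV, rose by 1.21 and 1.09, NDUFS5, of complex I, by 1.06, and ATP5O and ATP5H, of the ATP synthase, by 1.02 and 0.98. Of 75 mitochondrial ribosomal proteins 13 rose and 4 fell, the latter a smaller share than that of all genes (median 0.20). MRPL54 rose by 0.94, MRPL28 by 0.87, MRPL47 by 0.83, MRPL41 by 0.79 and MRPS15 by 0.77. The 4 that fell were MRPS35 (-0.34), MRPL49 (-0.31), MRPS18B (-0.29) and MRPS27 (-0.27). Of 32 proteasome subunits 15 rose and 4 fell (median 0.45). PSMA1 rose by 1.03, PSMB4 by 0.89 and PSMB7 by 0.82, while PSMD7 fell by 1.55 ± 0.19, and PSMC1 (-0.85), PSMD1 (-0.75) and PSMD11 (-0.47) fell too. The other 13 were not called, and 22 stood higher by the centred test alone.

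Stress programmes moved in part, to be read against 6.81% of all tested genes that rose and 16.6% that fell. Of 29 ATF4 targets and unfolded protein response genes 11 rose and 3 fell, the latter a smaller share than that of all genes (median 0.26). CHAC1, which degrades glutathione, rose by 1.21, TRIB3 by 1.11 and CEBPB by 1.03, while DDIT4, HSPA5 (-0.42) and SLC7A11 (-0.35) fell. Of 29 interferon-stimulated genes 6 rose and 3 fell, the latter a smaller share than that of all genes. Of the 32 listed, 24 had a value under 5 in at least 1 group. ISG20, ISG15, IRF7 and IFI6 rose by 1.41, 1.16, 1.14 and 1.04. IFIT1 and OASL rose by 1.62 and 2.65, and DDX60 (-1.04), OAS3 (-0.77) and DDX58 (-0.75) fell, all of them at such low values. Of 21 heat shock genes 4 rose and 7 fell. HSPA8, the constitutive HSP70, had mean counts of 6422.5 in the knockdown against 23578.5 in H2O2-treated wild type and fell by 1.64 ± 0.07, and HSPH1 (-1.21) and HSP90AA1 (-0.72) fell. HSPB8, CRYAB, DNAJB1 and BAG3 rose by 1.14, 1.0, 0.61 and 0.44. Of 32 NRF2 targets and antioxidant enzymes 4 rose and 11 fell (median -0.08). HMOX1, heme oxygenase 1, had 3075 and 1308.5 and rose by 1.47 ± 0.09, and OSGIN1, GPX1 and PRDX6 rose by 1.05, 0.62 and 0.54. NQO1, NFE2L2, which encodes NRF2 itself, and SOD2 fell (-0.90, -0.83 and -0.77).

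Further groups had few calls or calls both ways, to be read against 6.81% of all tested genes that rose, 16.6% that fell and 13.3% higher by the centred test alone. Of 20 tRNA synthetases 1, CARS, rose (0.54) and 6 fell, while the centred test alone gave 5 higher. Among those that fell were LARS (-0.67), IARS (-0.64), FARSB (-0.52) and EPRS (-0.51), and the median was 0.05. Of 31 factors of RNA polymerase II pausing and elongation 2 rose, ELL (0.82, with a value under 5) and MLLT3 (0.78). Another 10 fell, among them both FACT subunits, SSRP1 (-0.67) and SUPT16H (-0.57), CDC73 (-0.64) and LARP7 (-0.61). The centred test alone gave 6 higher, and the median was -0.02. Of 32 glycolysis and hypoxia-response genes 3 rose and 4 fell, shares near those of all genes, while the centred test alone gave 15 higher and 23 of 30 lay above the median gene (median 0.32). BNIP3, ALDOA and PFKL rose by 0.58, 0.57 and 0.50, and ANKRD37, PFKFB3, EGLN1 and PGAM1 fell (-0.70, -0.53, -0.37 and -0.24). Of 22 clock genes 4 rose, PER1 (1.20), DBP (1.11), NR1D1 (0.97) and NFIL3 (0.75). Another 3 fell, among them CRY1 (-1.02, with a value under 5) and ARNTL2 (-0.53), and the centred test alone gave 7 higher. Among 12 IGF-binding proteins and receptors IGFBP2 alone rose, and IGFBP3 (-0.21) and IRS1 (-0.64, with a value under 5) fell. IGFBP5 (-0.22), IGFBP6 (-0.15) and IGF1R (0.26) were not called.

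**Figure D3:**
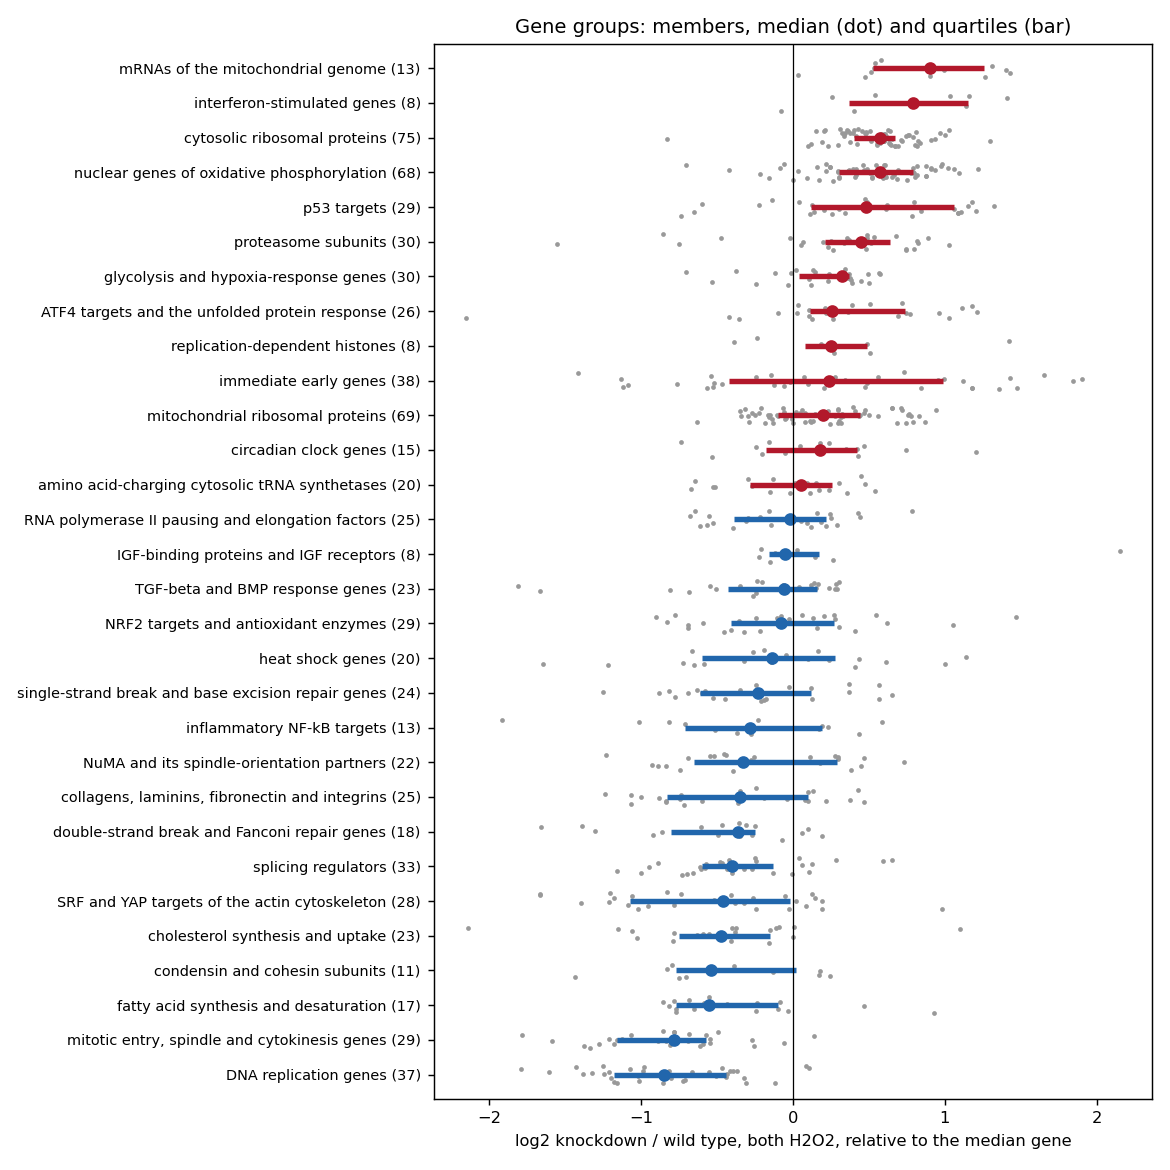
Log2 difference of knockdown from wild type, both H2O2-treated and relative to the median gene, for gene groups with at least 8 members past the limit of 5 (number in brackets). Grey points are genes, the dot is the median and the bar runs over the quartiles; DNA replication (-0.85) lies lowest and the mRNAs of the mitochondrial genome (0.90) highest.

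The difference also followed gene structure. Over genes spanning under 5 kb the median was 0.25, over 20 to 50 kb -0.03 and over 100 to 200 kb -0.16. By GC content of the transcripts it was -0.20 under 40%, 0.01 at 50 to 55% and 0.27 over 60%. Across 8668 genes Spearman's rho was 0.32 with GC content, -0.25 with span, -0.38 between GC content and span, and -0.03 with the wild type value. These are descriptions across genes, which share libraries and are not independent replicates. Within genes spanning 10 to 50 kb the median was still 0.25 over 60% GC, against -0.16 under 45%. The 595 genes of chromosome 19 had a median of 0.31 and a median GC content of 60.4%. Of these 595, 33 were at least 2-fold higher and 6 at least 2-fold lower, against 2.22% and 3.21% of all 8692 genes. Chromosomes 4 and 18 stood lowest, both at -0.18.

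When the trend with GC content and span was taken out, an alternative added after seeing the data, the medians of replication (-0.89), mitosis (-0.83), the mitochondrial genome (0.81) and ribosomal proteins (0.42) kept their signs. That of condensin and cohesin came to -0.28, of NuMA partners to -0.16, and of immediate early genes to 0.06 against 0.24. Chromosome 19 came to 0.11. The part of GC content and span in any single result was not tested.

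**Figure D4:**
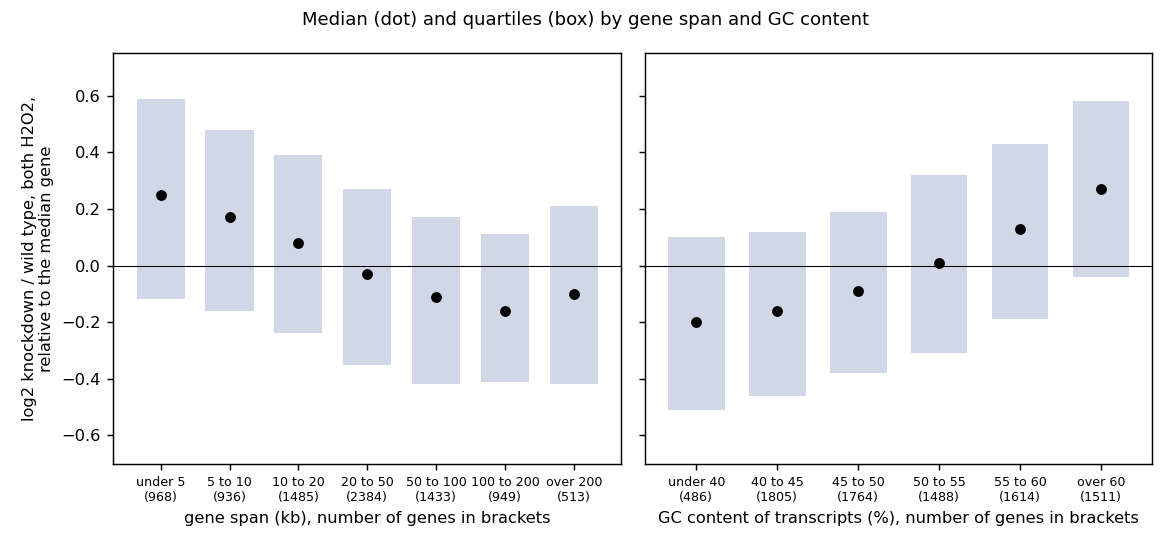
Median (dot) and quartiles (box) of the log2 difference of knockdown from wild type, both H2O2-treated and relative to the median gene, by gene span and by GC content, with gene numbers in brackets. The median runs from 0.25 under 5 kb to -0.16 at 100 to 200 kb, and from -0.20 under 40% GC to 0.27 over 60%.

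Markers checked the labelled cells, with calls to be read against 6.81% of all tested genes that rose and 16.6% that fell. The lists are small, and their few calls describe single genes. Of 14 markers of differentiated retinal pigment epithelium found, 3 had both values at least 5: OTX2 (0.18), MITF (0.06) and RDH5, which rose (1.06 ± 0.28). Their summed values were 41.1 in the knockdown, 41.6 in H2O2-treated wild type and 49.2 in untreated wild type. The keratin KRT18 had mean counts of 6641 in the knockdown and 8173 in H2O2-treated wild type. KRT8 fell (-0.42). KRT19 fell (-1.21) and CLDN4 rose (2.16 ± 0.35), both with a value under 5 in at least 1 group. Of 9 fibroblast markers VIM rose (0.97 ± 0.07), and FAP (-1.54) and PDGFRB (-0.50) fell. Of 7 neuronal markers TUBB3 fell (-0.71), and of 7 immune markers CD79A rose (0.75) and CD226 fell. None of the 8 endothelial markers reached a value of 5 in both groups, and their summed values were 2.37, 2.59 and 2.60 in knockdown, H2O2-treated and untreated wild type.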

How the data were processed

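Newly made RNA of 6 libraries was compared in 3 groups of 2, set by the labels. RNA was isolated with Trizol, per the labels' protocols. The submitters' processing notes list STAR 2.5, DESeq2, DESeq and hg38 and give no roles; counter, strand setting and annotation release are not given in the sources used here.

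The authors deposited 1 signal value per gene and group, a log2 fold change and a p-value with its adjustment. The values were worked out (tolerance 1e-06) as the mean count of 2 libraries plus 1, divided by gene length, times a factor common to the table. Lengths were found for all 60448 genes, and 86.0% equal the mean transcript length of GENCODE 29; the other mean counts may be off by a multiple, which leaves ratios as they are. Depth of single libraries is unknown. That fold change was their plain log2 ratio, within 1.1e-05.

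Ratios were centred on the median of genes with both values at least 5. The standard error was the log2 ratio over the normal quantile of the deposited p (for 291 genes, the median of 101 neighbours), and the centred ratio had a normal test. The planned count test needs values per library. Span and GC content come from GENCODE 29 and promoters from RefSeq; 6945 of 8692 genes matched. Named genes were NUMA1, the 15 highest and 15 lowest protein-coding genes and up to 4 of other classes each way with at least 50 mean counts, up to 5 members of each of 36 lists, and all NuMA partners. Members and lists (1089 of 1090 genes matched) were chosen with earlier results of these data known, and some genes are in more than 1 list. Some list members are not reported here by name. Python 3.11.15, pandas 2.3.3, numpy 2.4.6 and scipy 1.17.1 were used.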

Additional observations from a re-analysis of the deposited data

How the results depend on the processing

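Without centring, 5118 genes were called lower, and 74 genes stood at least 2-fold higher and 587 at least 2-fold lower. Centred on summed mean counts (a centre of -0.12), 125 stood 2-fold higher. With both values at least 1 these counts were 449 higher and 627 lower, and with both at least 20, 66 and 110. The centred test alone called 2432 higher. With the trend of GC content and span removed, 2087 were called higher and 115 stood 2-fold higher; these last 2 alternatives were chosen after seeing the data. The other counts stayed within 1.5 times of the values in the report: an adjusted p under 0.01 gave 875 higher and 2319 lower calls, and a centre on genes with at least 50 mean counts (-0.28) gave 2728 lower calls. NUMA1 stood at -0.75, -0.63 and -0.47 under the 3 other centres. These centres moved differences by at most 0.23. The 39 genes named for their extreme differences, CD226 included, all differed by 1.48 or more in size, so their direction could not turn. Of 814 list genes with both values at least 5, small differences turned sign in 117 without centring, 46 with summed counts and 15 with the 50-count centre. None of the 454 that had been called turned. A call needs both the uncentred and the centred test, so this was largely set by the call rule and checks nothing further. List medians turned sign in 5 of 35 lists without centring: tRNA synthetases (-0.18), mitochondrial ribosomal proteins (-0.04), clock genes (-0.05), pigment epithelium markers (-0.05) and fibroblast markers (-0.09). They turned in tRNA synthetases (-0.06) with summed counts, in polymerase II factors (0.02) with the 50-count centre, and in IGF-binding proteins (0.02) and fibroblast markers (-0.07) with the trend removed. The causes were not tested. No paired analysis was possible because the deposited tables hold 1 pooled value per group, and for the same reason no replicate could be left out.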
